A study of Homo sapiens with 6 samples.

Results

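Mediator is the coactivator complex that carries signals from DNA-bound transcription factors to RNA polymerase II, and TFIID is the general factor that recognises the core promoter and brings in TBP, the TATA-binding protein. Mediator is built of a head, a middle and a tail joined by the long scaffold subunit MED14, and a separable kinase module (MED12, MED13, CDK8 and cyclin C, or their paralogs) docks on it and can block its contact with the polymerase. TFIID is built of TBP and the TBP-associated factors (TAFs), many of which pair through histone folds, and a few TAF-named proteins belong instead to SAGA, to the RNA polymerase I factor SL1, or to the FET family of RNA-binding proteins.

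The genes described here were the 55 protein-coding genes, of 30560 genes in the table, whose symbol starts with MED or TAF followed by a digit; 30 were MED genes and 25 were TAF-named. The rule used names only, not measured values. RNA sequencing had been done on HCT116, an established human colorectal carcinoma line of wild-type genotype per the labels. The 3 CPT-11 libraries came from cells that received irinotecan, a camptothecin prodrug whose active form traps topoisomerase I on DNA, at 10 µM for 48 hours, and the 3 DMSO libraries came from cells that received the solvent. Separate cultures are not stated in the labels, so the p-values reflect just the variation among these libraries, which may be technical. A single cell line at 1 dose and 1 time was compared, and in bulk RNA fewer cells and less RNA per cell cannot be told apart.

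The CPT-11 libraries held 15398464 to 18031195 reads on genes, and the DMSO libraries 15673435 to 17110580. Mitochondrial genes took 9.7 to 10.9% of reads in CPT-11 libraries and 6.84 to 7.45% in DMSO libraries. Within each group the library numbered 1 stood apart from the other two, with a chi-square per degree of freedom of 8.81 and 11.9 against 3.33 in CPT-11, and of 12.7 and 12.2 against 4.11 in DMSO. Colon epithelial markers (EPCAM, CDH1, KRT8, KRT18, KRT19, CDX2) were all present and summed to 6280 to 7090 CPM (reads scaled by the library total) in CPT-11 libraries and 3270 to 3730 CPM in DMSO libraries. Leukocyte markers summed to at most 0.619 CPM, endothelial markers to at most 2.05 CPM, and fibroblast markers to 57.1 to 79.0 CPM in CPT-11 and 32.0 to 39.0 CPM in DMSO libraries, nearly all of it COL1A1. The colon epithelial and fibroblast sums did not overlap between treatments, the endothelial sums did, and EPCAM itself had no call. The leukocyte sums rested on a few reads and barely separated, with at least 0.388 CPM in CPT-11 and at most 0.383 CPM in DMSO libraries. The part of these markers in the values below was not tested.

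Mediator and TFIID genes moved in both directions after CPT-11, in nearly equal numbers. Of the 55 genes, 53 were tested, 13 were higher in CPT-11 cells, 14 were lower and 26 had no call (limma on log2(normalized count + 1), Benjamini-Hochberg adjusted p below 0.05 over 16239 genes). The 27 calls were 50.9% of the tested genes, close to the 49.4% called among all tested genes and the 54% called among tested protein-coding genes. The share was also near the background in each direction, since 24.3% of all tested genes were higher and 25.1% lower (26.2% and 27.8% of protein-coding genes). Values of the groups did not overlap for 32 of the 53 genes, against 56.6% of all tested genes. The median log2 fold change was 0.00 for the 53 genes and 0.01 for all tested genes, and single genes ran from -1.36 to 1.11. The genes together took 0.277% ± 0.004 of reads in CPT-11 libraries and 0.284% ± 0.0015 in DMSO libraries (SD, n = 3 each). MED13L, MED12L and TAF13 were the 3 called genes that changed at least 2-fold, where 13.4% of tested protein-coding genes were called and changed at least 2-fold. The authors' deposited table gave an adjusted p below 0.05 for 24 of the 53 genes and for 44.2% of all tested genes.

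The count of higher genes leaned on single libraries: without CPT-11 replicate 2 it was 7 in place of 13, where 19.8% of all tested genes were higher. Scaled by reads on non-mitochondrial genes, 17 genes were higher and 9 lower, where 29.5% of all tested genes were higher and 21.3% lower: MED4, MED9, MED13, MED14 and TAF4 lost their calls, and MED6, TAF2, TAF5L and TAF7 were called higher. Without both libraries numbered 1, a setting chosen after seeing the data, 15 genes were higher and 19 lower, where the shares over all tested genes were 25.8% and 26.7%. MED12, MED20, MED23, MED29, TAF9, TAF11 and TAF13 were higher, and MED13L, MED16, MED30, TAF1D, TAF5 and TAF6 lower, under every one of the 18 alternative settings run, while 11 other called genes lost their call when 1 library was left out. TAF1L, a testis-expressed copy of TAF1, had 2, 0 and 0 reads in CPT-11 libraries and 1, 1 and 0 in DMSO libraries, and TAF11L12, a TAF11-like copy, had 2, 0 and 0 reads in CPT-11 libraries and none in DMSO libraries. Both were too low to test, and counts of 3 reads equal 0.166 to 0.195 CPM at this depth.

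**Figure D1:**
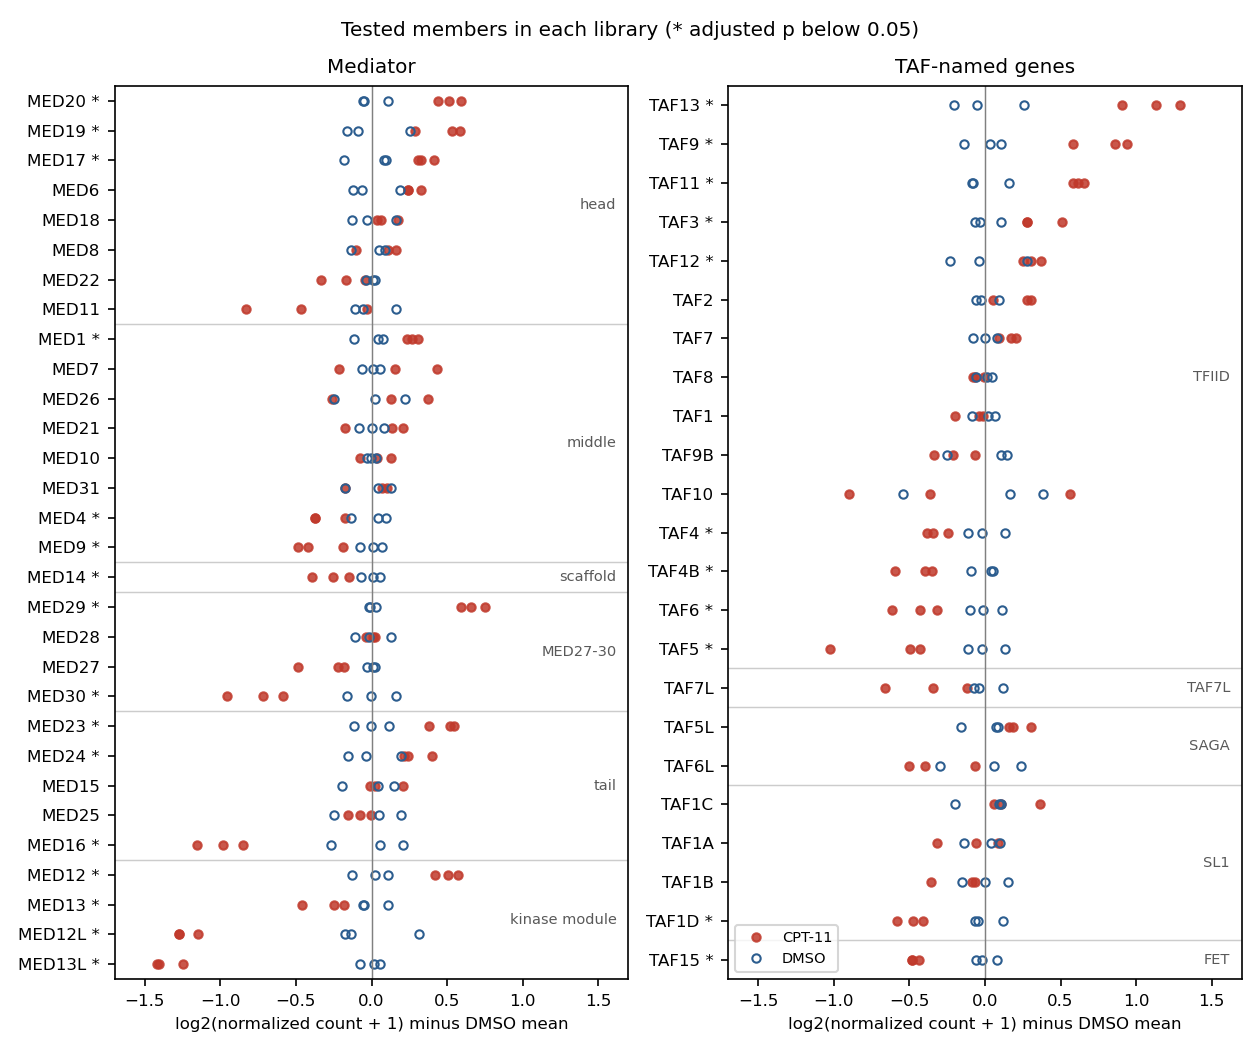
Values of the 53 tested genes in each library, as log2(normalized count + 1) minus the gene's DMSO mean, ordered within each role; filled points are CPT-11 libraries, open points DMSO libraries, and an asterisk marks an adjusted p below 0.05. MED13L and MED12L lie farthest to the left and TAF13 farthest to the right, and within most roles genes lie on both sides of 0.

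The sequences upstream of 3 of the 4 genes with the largest rises and of the 3 genes with the largest falls, from the RefSeq promoter table (GRCh38.p14), are shown so that the promoters of genes that moved most can be compared; the windows listed for TAF9 lie mostly within the annotated gene and are not shown. Each is the part, upstream of the gene's annotated end in the files, of the 250 bases before the RefSeq start, written 5′ to 3′ on the gene's strand: TAF13 chr1:109076004-109076253 (minus strand), MED29 chr19:39391128-39391302 (plus), TAF11 chr6:34888090-34888321 (minus), MED13L chr12:116277720-116277943 (minus), MED12L chr3:151085414-151085663 (plus) and MED16 chr19:893219-893437 (minus). Capitals mark exact matches, on either strand, to the TATA box (TATAAA), the CCAAT box, which reads ATTGG on the other strand, the GC box GGGCGG, which reads as the letters CCGCCC on the other strand, the ETS element CCGGAAG or the cyclic AMP element TGACGTCA; adjoining GC boxes overlap in MED13L.
TAF13: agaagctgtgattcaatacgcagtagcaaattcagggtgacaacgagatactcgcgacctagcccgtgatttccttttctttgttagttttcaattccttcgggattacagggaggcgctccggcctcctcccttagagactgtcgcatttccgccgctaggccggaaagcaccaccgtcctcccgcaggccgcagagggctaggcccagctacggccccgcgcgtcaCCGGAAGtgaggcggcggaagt
MED29: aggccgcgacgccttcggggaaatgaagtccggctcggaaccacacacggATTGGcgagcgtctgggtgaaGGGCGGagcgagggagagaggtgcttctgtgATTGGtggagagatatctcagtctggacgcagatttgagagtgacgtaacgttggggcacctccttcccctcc
TAF11: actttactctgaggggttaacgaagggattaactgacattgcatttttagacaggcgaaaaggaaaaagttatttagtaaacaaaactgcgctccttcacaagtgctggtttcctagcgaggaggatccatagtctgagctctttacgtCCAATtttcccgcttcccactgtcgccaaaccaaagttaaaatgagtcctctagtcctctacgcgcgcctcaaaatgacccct
MED13L: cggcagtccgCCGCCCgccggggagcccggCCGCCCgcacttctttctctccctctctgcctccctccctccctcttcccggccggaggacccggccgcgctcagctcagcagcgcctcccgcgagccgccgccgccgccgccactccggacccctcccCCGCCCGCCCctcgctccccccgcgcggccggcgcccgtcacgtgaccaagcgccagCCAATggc
MED12L: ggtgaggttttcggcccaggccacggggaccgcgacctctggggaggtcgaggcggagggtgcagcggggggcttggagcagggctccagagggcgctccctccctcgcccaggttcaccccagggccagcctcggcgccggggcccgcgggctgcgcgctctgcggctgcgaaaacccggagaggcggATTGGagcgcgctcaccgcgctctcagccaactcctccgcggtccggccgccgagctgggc
MED16: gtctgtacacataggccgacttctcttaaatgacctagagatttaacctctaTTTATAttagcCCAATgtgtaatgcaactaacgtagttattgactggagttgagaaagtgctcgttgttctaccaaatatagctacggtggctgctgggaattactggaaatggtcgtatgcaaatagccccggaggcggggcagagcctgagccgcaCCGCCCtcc

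The promoters differed widely in base composition: GC content was 58.4% for TAF13, 60.0% for MED29 and 44.8% for TAF11 among the higher genes, and 79.9% for MED13L, 75.6% for MED12L and 47.5% for MED16 among the lower ones. TAF13 held an ETS match 22 bases before the RefSeq start, and MED13L held 4 GC boxes and a CCAAT box 34 bases before it. Of the 55 genes, 43 matched a promoter entry. A gene was counted for a motif if any of its promoter entries held it, whereas shares of all promoters count single entries. The gene shares can therefore be larger for that reason alone. CCGGAAG stood in 27.9% of these 43, in 18.4% of tested protein-coding genes with an entry and in 8.52% of all 35116 promoters. It was in 5 of 13 higher genes, 1 of 10 lower genes and 6 of 19 genes with no call. By the same groups, GGGCGG was in 7, 8 and 11 genes and CCAAT in 5, 7 and 6. TATAAA was in 0, 1 and 1 and TGACGTCA in 0, 1 and 2. None of these splits was tested. As a share, GGGCGG stood in 62.8% of the 43, 75.0% of tested protein-coding genes and 42.6% of all promoters, and CCAAT in 44.2%, 41.5% and 32.0%. TATAAA stood in 6.98% of the 43, against 8.04% of tested protein-coding genes and 10.7% of all promoters, and TGACGTCA in 6.98%, against 3.33% and 1.65%. A match describes these letters in this window and is not a binding site.

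Among Mediator genes the 8 head genes had 3 higher, none lower and a median log2 fold change of 0.18. Over all tested genes 24.3% were higher and 25.1% lower, which is also the background of the Mediator groups below. The head genes had a median span of 9.21 kb. Protein-coding genes under 10 kb had a median of 0.17, with 34.2% higher and 16% lower. Relative to genes of like span the head median was 0.01. MED20, a head subunit that pairs with MED18, had 391, 411 and 435 normalized counts in CPT-11 libraries and 278, 277 and 310.2 in DMSO libraries. All CPT-11 values lay above all DMSO values, and the log2 fold change was 0.52 ± 0.12 (SE; limma adjusted p = 0.0015). MED17, the core architectural subunit of the head, and MED19, which lies where head and middle meet, were also called higher, with log2 fold changes of 0.35 and 0.47. The MED17 call was lost without CPT-11 replicate 1, 2 or 3 or DMSO replicate 1 (log2 fold change 0.26 to 0.37, adjusted p 0.0536 to 0.141), and the MED19 call without CPT-11 replicate 2 or DMSO replicate 2 or 3 (0.39 to 0.44, adjusted p 0.0506 to 0.071). MED11, the gene with the shortest span of those tested, 2.18 kb from start to end, had 108, 61.8 and 79.9 normalized counts in CPT-11 libraries and 124, 103 and 107 in DMSO libraries. These groups overlapped through CPT-11 replicate 1, and the log2 fold change was -0.44 ± 0.21 (adjusted p = 0.0875), or -0.65 (adjusted p = 0.0181) without that library. MED11 shares 36.9% of its exonic bases with other annotated genes, among them AC091153.4 on the other strand. MED8, also short at 5.89 kb, had no call, with 367, 423 and 441 normalized counts in CPT-11 libraries and 418, 407 and 357 in DMSO libraries. MED6 had no call either, and gained one without DMSO replicate 2 (log2 fold change 0.36, adjusted p = 0.0281).

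The 8 middle genes had 1 higher, 2 lower and a median of 0.04. MED1, the subunit that binds nuclear receptors, was called higher by 0.27 on the log2 scale, and MED4 and MED9 were called lower, at -0.31 and -0.36. All these calls were lost when 1 library was left out: MED1 without CPT-11 replicate 2 or 3 or DMSO replicate 2 (adjusted p 0.0575 to 0.0983), MED4 without CPT-11 replicate 1 or 2 or DMSO replicate 1 or 2 (0.0665 to 0.113), and MED9 without CPT-11 replicate 1 or 2 or DMSO replicate 2 or 3 (0.0557 to 0.114). The scaffold MED14 had 1373, 1509.6 and 1625 normalized counts in CPT-11 libraries and 1815, 1879 and 1719 in DMSO libraries. The CPT-11 values all lay below the DMSO values, with a log2 fold change of -0.27 ± 0.09 (adjusted p = 0.0242), and the call was lost without CPT-11 replicate 1 or 2 or DMSO replicate 2 (adjusted p 0.0699 to 0.0951).

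MED27, MED28, MED29 and MED30, which sit where head and tail meet, split widely. MED29, the counterpart of Drosophila Intersex, had 1154, 1236 and 1104 normalized counts in CPT-11 libraries and 723, 726 and 749 in DMSO libraries. Both groups were tight and far apart, with a log2 fold change of 0.67 ± 0.09 (adjusted p = 1.57e-05). MED30, a subunit found in animals but not in yeast, had 123, 145 and 159 normalized counts in CPT-11 libraries and 268, 214 and 239 in DMSO libraries. It lay lower in every CPT-11 library, with a log2 fold change of -0.76 ± 0.15 (adjusted p = 0.000507). MED28 was level, with a log2 fold change of 0.00 and a 95% interval of -0.19 to 0.19. MED27 had 303, 245 and 294 normalized counts in CPT-11 libraries and 350.0, 337 and 346 in DMSO libraries, groups that did not overlap but missed the threshold (log2 fold change -0.30, adjusted p = 0.0578); without CPT-11 replicate 1 it was -0.36 (adjusted p = 0.0376).

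In the tail, where many activators bind, 2 of 5 genes were higher and 1 lower, with a median of 0.07. MED16 (chr19:867630-893218) fell to 729, 663 and 590.0 normalized counts in CPT-11 libraries, against 1090.0, 1516 and 1367 in DMSO libraries. The highest CPT-11 value lay below the lowest DMSO value, and the log2 fold change was -0.99 ± 0.12 (adjusted p = 2.78e-06). MED23, a target of the Ras-pathway factor ELK1, had 1196, 1339 and 1315 normalized counts in CPT-11 libraries and 995, 915 and 847 in DMSO libraries, a log2 fold change of 0.48 ± 0.10 (adjusted p = 0.000536) between groups that did not overlap. MED24 was called higher at 0.29, a call lost without CPT-11 replicate 1 or 2 or DMSO replicate 1 or 3 (adjusted p 0.0542 to 0.0805). MED15, which binds the lipid regulator SREBP, and MED25 had no call, at 0.07 and -0.08.

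The kinase module held the largest falls, and all 4 of its MED genes were called, 3 of them lower, where 49.4% of all tested genes were called. The 3 lower genes each span over 100 kb, and 57.3% of tested protein-coding genes of 100 kb or more were lower. Relative to genes of like span, MED12L and MED13 lost their calls (adjusted p = 0.123 and 0.642, limma). MED13L (chr12:115953872-116277719), a paralog of MED13 that tethers the module to core Mediator, had 1333, 1342 and 1499 normalized counts in CPT-11 libraries and 3709, 3384 and 3600.2 in DMSO libraries. No CPT-11 library reached the level of any DMSO library, and the log2 fold change was -1.36 ± 0.09 (adjusted p = 1.24e-09). MED12L (chr3:151085697-151437072), the paralog of MED12, had 110.2, 121 and 110.4 normalized counts in CPT-11 libraries and 237, 244 and 334 in DMSO libraries. It too lay lower in every CPT-11 library, at a log2 fold change of -1.23 ± 0.16 (adjusted p = 5.33e-06), with 30.1% of its exonic bases shared with other annotated genes, among them IGSF10 on the other strand, so reads of the overlap are uncertain. MED13 had 2525, 2916 and 3058 normalized counts in CPT-11 libraries and 3746, 3342 and 3326 in DMSO libraries. The groups did not overlap, the log2 fold change was -0.30 ± 0.09 (adjusted p = 0.0141), and without CPT-11 replicate 1 it was -0.21 (adjusted p = 0.057).

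MED12 (chrX:71118556-71142454), which activates the module's kinase through cyclin C, moved the other way. It had 969.9, 1027 and 1078 normalized counts in CPT-11 libraries and 661, 780.0 and 737 in DMSO libraries, a log2 fold change of 0.50 ± 0.10 (adjusted p = 0.000516). Every CPT-11 value exceeded every DMSO value. Of the module's other genes, the kinase CDK8 had 505, 575 and 528 normalized counts in CPT-11 libraries and 688, 832 and 729.9 in DMSO libraries (log2 fold change -0.48 ± 0.11, adjusted p = 0.00137). Its paralog CDK19 had 355, 462 and 428 in CPT-11 libraries and 573, 576 and 604 in DMSO libraries (-0.50 ± 0.12, adjusted p = 0.00183). Both kinases lay lower in all CPT-11 libraries. Cyclin C (CCNC) had no call, with 1643, 2085 and 2037 normalized counts in CPT-11 libraries and 2119, 1971 and 1809.5 in DMSO libraries and a 95% interval of -0.24 to 0.16 for its log2 fold change.

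**Figure D2:**
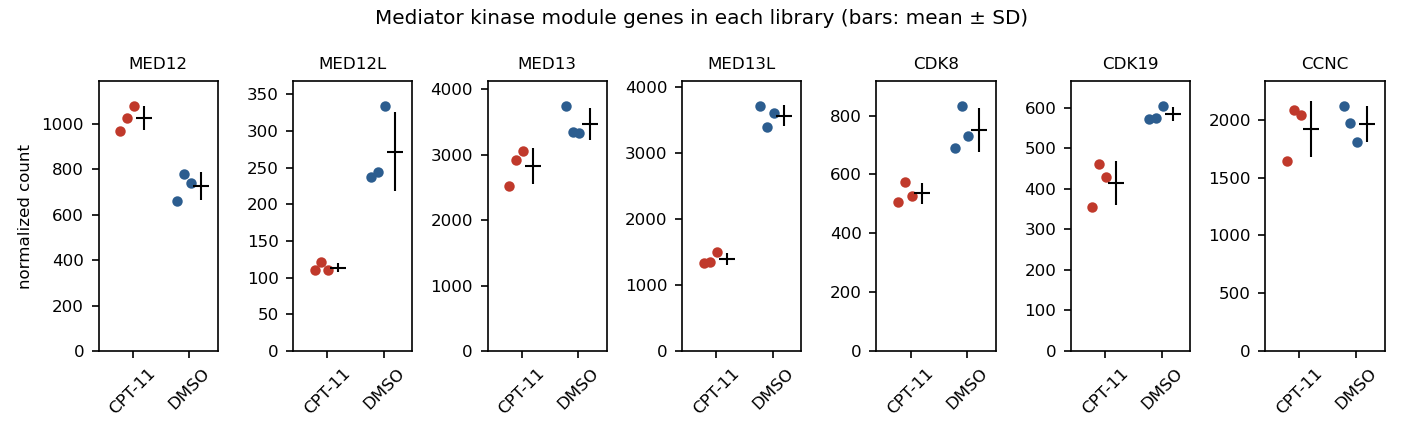
Normalized counts of the 7 genes of the Mediator kinase module in each CPT-11 library and each DMSO library, on linear axes from 0, with the mean and SD of 3 libraries beside the points. MED12 is higher in CPT-11 libraries, CCNC overlaps between groups, and the other 5 genes lie lower in CPT-11 libraries.

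The balance between MED12 and MED13 and their paralogs differed between treatments. The ratio of MED12L to MED12 normalized counts was 0.111 ± 0.00776 in CPT-11 libraries and 0.375 ± 0.0713 in DMSO libraries (SD, n = 3 each), and that of MED13L to MED13 was 0.493 ± 0.0339 in CPT-11 libraries and 1.03 ± 0.0482 in DMSO libraries. Neither ratio overlapped between groups, whereas CDK19 to CDK8 did, at 0.772 ± 0.0599 in CPT-11 and 0.784 ± 0.0803 in DMSO libraries. For scale, 56.6% of single tested genes did not overlap, and the ratios restate the fold changes given above. MED12L and MED13L span 351 and 324 kb, MED12 and MED13 span 23.9 and 123 kb, and CDK19 and CDK8 span 206 and 151 kb. The part of span in these ratios was not tested. With 3 libraries a group, an exact two-sided permutation test cannot give a p below 0.1, so ratios are described by their spread and overlap alone. Summed per kilobase of exonic sequence, the 4 MED genes of the module came to 407.8 ± 31.0 normalized counts per kb in CPT-11 libraries and 488.6 ± 12.5 in DMSO libraries, a ratio of 0.835. The other 26 Mediator genes summed to 3927 ± 60.3 per kb in CPT-11 libraries and 3881 ± 95.9 in DMSO libraries, a ratio of 1.01.

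Of the 15 TFIID genes, 5 were higher and 4 lower, and the median log2 fold change was -0.05. These counts lie near the background, since 24.3% of all tested genes were higher and 25.1% lower. The largest rises were in histone-fold subunits, though TAF4 and TAF6, which were lower, also pair through histone folds. TAF13 (chr1:109062486-109076002), the partner of TAF11, had 853, 1113 and 998 normalized counts in CPT-11 libraries and 545, 439.7 and 394 in DMSO libraries. The lowest CPT-11 value exceeded the highest DMSO value, and the log2 fold change was 1.11 ± 0.13 (adjusted p = 1.61e-06), the largest rise among the 53 genes. TAF11 had 690.4, 658 and 672 normalized counts in CPT-11 libraries and 490.0, 414 and 416 in DMSO libraries, a log2 fold change of 0.62 ± 0.11 (adjusted p = 0.000147) between groups that did not overlap. TAF9 (chr5:69364743-69370013), the partner of TAF6 that also belongs to SAGA, had 1719, 2084 and 2207 normalized counts in CPT-11 libraries and 1236, 1176 and 1045 in DMSO libraries. It rose by 0.79 ± 0.11 on the log2 scale (adjusted p = 7.76e-06), and 27.2% of its exonic bases are shared with other annotated genes, among them AK6, 20.6% on the same strand.

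TAF6 and TAF5, which meet in the same lobes of TFIID, fell. TAF6 had 428, 377 and 463 normalized counts in CPT-11 libraries and 539, 572 and 622 in DMSO libraries (log2 fold change -0.45 ± 0.12, adjusted p = 0.00337), with 28.3% of its exonic bases shared with other annotated genes, among them AP4M1 on the other strand. TAF5, a WD-repeat subunit, had 147, 213 and 223 in CPT-11 libraries and 330.0, 297 and 278 in DMSO libraries (-0.65 ± 0.16, adjusted p = 0.00234). Neither gene overlapped between groups. TAF4, a core scaffold subunit, had 564, 603 and 549 normalized counts in CPT-11 libraries and 661, 785 and 707 in DMSO libraries, and its paralog TAF4B, known for germ cells and B cells, had 444, 509 and 527 in CPT-11 libraries and 697, 629 and 688 in DMSO libraries. Both lay lower in every CPT-11 library, at -0.32 ± 0.11 (adjusted p = 0.017) and -0.45 ± 0.11 (adjusted p = 0.00246) on the log2 scale. The TAF4 call was lost without CPT-11 replicate 3 or DMSO replicate 2 (-0.30 and -0.26, adjusted p 0.0637 and 0.0991).

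The remaining higher genes were TAF12, the partner of TAF4, and TAF3, whose PHD finger reads a methylated histone tail. TAF12 had 607, 661 and 629.9 normalized counts in CPT-11 libraries and 617, 495 and 434 in DMSO libraries. The groups overlapped through DMSO replicate 1, and the call (log2 fold change 0.31 ± 0.12, adjusted p = 0.0473) was lost without CPT-11 replicate 2 or 3 or DMSO replicate 2 or 3 (0.19 to 0.31, adjusted p 0.0881 to 0.253). TAF3 had 384, 451 and 385 in CPT-11 libraries and 302, 340.2 and 309 in DMSO libraries, at 0.35 ± 0.12 (adjusted p = 0.0216), a call lost without CPT-11 replicate 2 or DMSO replicate 3 (0.28 and 0.34, adjusted p 0.128 and 0.0668). TAF1, the largest subunit, TAF7, its partner, and TAF8 had no call, at -0.08, 0.15 and -0.05 with adjusted p of 0.496, 0.179 and 0.707. TAF2, which contacts the initiator, had 2289, 2686 and 2731 normalized counts in CPT-11 libraries and 2353, 2167 and 2122 in DMSO libraries (0.21, adjusted p = 0.069), and was called higher without CPT-11 replicate 1 or DMSO replicate 1 (0.26 to 0.29, adjusted p 0.0115 to 0.0246).

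TAF10, shared by TFIID and SAGA, was the most scattered of the TFIID genes. It had 410.0, 215 and 148 normalized counts in CPT-11 libraries and 190.0, 310.3 and 361 in DMSO libraries. The library numbered 1 was the highest of the CPT-11 group and the lowest of the DMSO group, and the log2 fold change was -0.23 ± 0.27 (adjusted p = 0.505). Without CPT-11 replicate 1 it was -0.63 (adjusted p = 0.0247), without DMSO replicate 1 it was -0.51 (adjusted p = 0.0244), and without both it was -0.90 (adjusted p = 0.000102). Of the exonic bases of TAF10, 51.2% are shared with other annotated genes, among them ILK.

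Ratios within histone-fold pairs did not overlap between groups for 3 of the 5 pairs. For scale, 56.6% of single tested genes did not overlap, and ratios of unrelated gene pairs were not computed. The ratio of TAF9 to TAF6 normalized counts was 4.77 ± 0.754 in CPT-11 libraries and 2.01 ± 0.31 in DMSO libraries, that of TAF12 to TAF4 was 1.11 ± 0.0367 in CPT-11 and 0.726 ± 0.18 in DMSO libraries, and that of TAF13 to TAF11 was 1.47 ± 0.23 in CPT-11 and 1.04 ± 0.0842 in DMSO libraries (SD, n = 3 each). In each of these the ratio was higher in CPT-11 libraries, which itself means a higher log2 fold change for the gene in the numerator. The ratios of TAF10 to TAF3 and to TAF8 overlapped, at 0.644 ± 0.371 and 0.484 ± 0.263 in CPT-11 libraries against 0.903 ± 0.269 and 0.521 ± 0.166 in DMSO libraries. Summed per kilobase, the 15 TFIID genes came to 3708 ± 261 normalized counts per kb in CPT-11 libraries and 2876 ± 203 in DMSO libraries, a ratio of 1.29, although their median fold change was near 0: per kilobase TAF9 alone averaged 777 in CPT-11 and 447 in DMSO libraries, and TAF13 averaged 706 in CPT-11 and 328 in DMSO libraries.

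**Figure D3:**
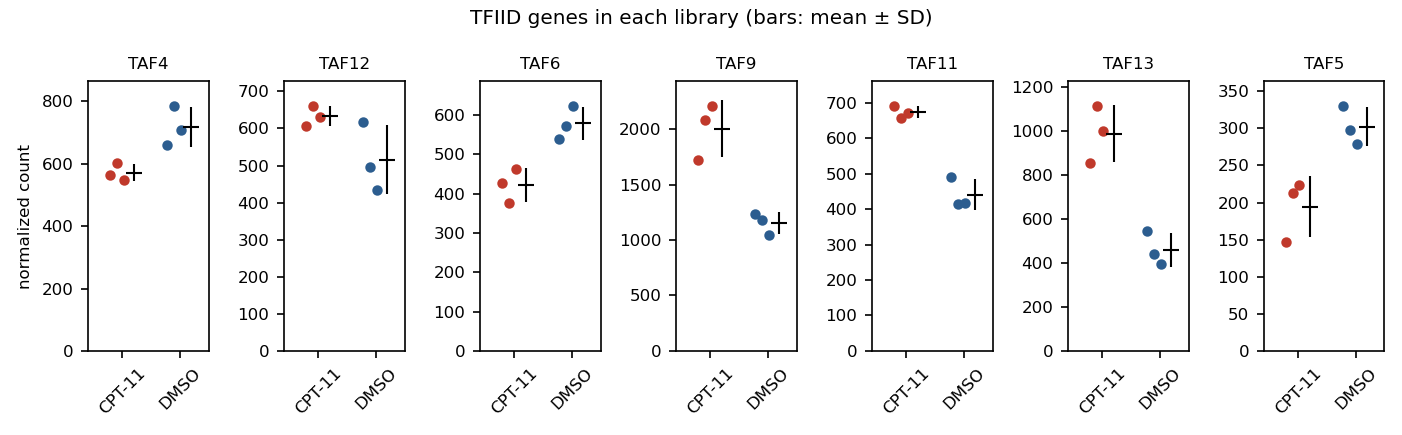
Normalized counts of 7 TFIID genes in each CPT-11 library and each DMSO library, on linear axes from 0, with the mean and SD of 3 libraries beside the points; histone-fold partners TAF4 and TAF12, TAF6 and TAF9, and TAF11 and TAF13 stand side by side. TAF9, TAF11 and TAF13 lie higher and TAF4, TAF5 and TAF6 lower in every CPT-11 library, and TAF12 overlaps.

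The ratio of a paralog to its TFIID gene did not overlap between groups for TAF9B, TAF5L and TAF7L and overlapped for TAF6L and TAF4B. Among single tested genes 56.6% did not overlap. TAF9B had 456, 549 and 496 normalized counts in CPT-11 libraries and 636, 621 and 485 in DMSO libraries, overlapping groups with no call (log2 fold change -0.21, adjusted p = 0.178; -0.33, adjusted p = 0.0486, without DMSO replicate 3). The ratio of TAF9B to TAF9 was 0.251 ± 0.0228 in CPT-11 libraries and 0.502 ± 0.0337 in DMSO libraries, without overlap. TAF5L and TAF6L, the SAGA counterparts of TAF5 and TAF6, had no call at 0.21 (adjusted p = 0.109) and -0.32 (adjusted p = 0.0967), and TAF6L was called lower without CPT-11 replicate 1 or DMSO replicate 1 (-0.45 and -0.47, adjusted p 0.0281 and 0.00789). The ratio of TAF5L to TAF5 was 3.61 ± 0.726 in CPT-11 libraries and 1.95 ± 0.127 in DMSO libraries without overlap. The ratio of TAF6L to TAF6 was 0.554 ± 0.105 in CPT-11 libraries and 0.505 ± 0.0813 in DMSO libraries, and that of TAF4B to TAF4 was 0.864 ± 0.0879 in CPT-11 and 0.943 ± 0.129 in DMSO libraries. TAF7L, a germ-cell paralog of TAF7, was low, at 15.0, 22.3 and 18.9 normalized counts in CPT-11 libraries and 23.0, 23.5 and 26.4 in DMSO libraries, with no call (log2 fold change -0.37 ± 0.33, adjusted p = 0.363).

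The SL1 genes TAF1A, TAF1B and TAF1C, which serve ribosomal RNA transcription, had no call, at -0.10, -0.17 and 0.18 on the log2 scale. TAF1D, the fourth of them, had 2289.7, 2586 and 2470.4 normalized counts in CPT-11 libraries and 3725, 3321 and 3278 in DMSO libraries. It lay lower in every CPT-11 library, with a log2 fold change of -0.49 ± 0.09 (adjusted p = 0.000183), and shares 17.3% of its exonic bases with other annotated genes, among them CEP295. Its span overlaps that of MED17 on chromosome 11 by 165 bases, and the genes moved oppositely, MED17 at 0.35 and TAF1D at -0.49. TAF15, of the FET family, had 2242, 2164 and 2165 normalized counts in CPT-11 libraries and 3205, 2910.2 and 2987 in DMSO libraries, a log2 fold change of -0.47 ± 0.08 (adjusted p = 0.000166). EWSR1, of the same family, was also lower, at -0.40 (adjusted p = 0.000871).

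Genes that work with these complexes were as mixed: of 39 tested partner genes 12 were higher and 11 lower. Among all tested genes 24.3% were higher and 25.1% lower, which is also the background of the smaller lists below. Scaled by reads on non-mitochondrial genes, 14 partner genes were higher and 8 lower, where 29.5% of all tested genes were higher and 21.3% lower. TBP had 413, 397 and 390.2 normalized counts in CPT-11 libraries and 483, 455 and 473 in DMSO libraries, groups that did not overlap but missed the threshold (log2 fold change -0.23, adjusted p = 0.0841), and its relative TBPL1 was higher at 0.37 (adjusted p = 0.0212). Of 16 tested general transcription factor genes 6 were higher and 3 lower, with a median of 0.13; GTF2B (TFIIB) was higher at 0.63 and GTF2F2, a TFIIF subunit, lower at -0.86. Of 14 tested SAGA genes outside the TAFs 4 were higher and 3 lower, from KAT2A, its acetyltransferase, at 0.94 to SUPT3H, which carries a double histone fold like that of TAF13 with TAF11, at -1.98. SUPT3H spans 569 kb, and relative to genes of like span it was at -0.52 and lost its call (limma adjusted p = 0.0769). The RNA polymerase I factors RRN3 and UBTF were higher at 0.46 and lower at -0.22.

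Genomic span, gene end minus gene start, ran from 2.18 kb for MED11 to 351 kb for MED12L among the tested genes, and the 2 longest genes, MED12L and MED13L, had the 2 lowest fold changes. Of the 10 genes spanning 100 kb or more, 6 were lower and 1 higher, and their median log2 fold change was -0.31; among tested protein-coding genes of that span 57.3% were lower and 9.58% higher, with a median of -0.44. In the CPT-11 libraries taken singly, the median of these 10 genes relative to the DMSO mean was -0.39, -0.32 and -0.29. Of the 12 genes under 10 kb, 3 were higher and none lower, with a median of 0.04, where 34.2% of protein-coding genes of that span were higher and 16% lower, with a median of 0.17. Between 10 and 30 kb 4 of 15 were higher and 5 lower (median -0.08; 33.8% higher, 17% lower and 0.15 among protein-coding genes), and between 30 and 100 kb 5 of 16 were higher and 3 lower (median 0.08; 24.7% higher, 26.6% lower and -0.01).

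Across the 53 genes, log2 fold change and log10 span had a Pearson r of -0.35 and a Spearman rho of -0.26, and across 13215 tested protein-coding genes -0.30 and -0.32; genes share the same libraries and are not independent replicates. The value for the 53 genes leaned on MED12L and MED13L, without which r was -0.17 and rho -0.17 over 51 genes. Relative to the running median of 501 protein-coding genes of like span, MED13L remained lower, at -0.49 (adjusted p = 0.000181), and MED12L was at -0.29 (adjusted p = 0.123). On that scale 12 genes were higher and 12 lower, where 22.1% of all tested genes were higher and 23.9% lower. Besides MED12L, the calls of TAF15, TAF4, TAF4B, MED13, MED14, MED17, MED19 and TAF12 were lost, at -0.15, -0.11, -0.05, -0.06, -0.16, 0.26, 0.30 and 0.25, as were those of CDK8, at -0.16, and CDK19, at 0.01. MED11, MED22, TAF6L and TAF9B were called lower there, at -0.57, -0.34, -0.47 and -0.38, and TAF2 higher, at 0.37. MED16, at 25.6 kb, was at -1.14 relative to the median of its span (adjusted p = 6.83e-07), MED30 at -0.93 and TAF5 at -0.79. TAF3, 198 kb long, lay 0.83 above its own (adjusted p = 1.79e-05), TAF13 0.96 and TAF9 0.58 above theirs, and TAF1, at 166 kb with a plain log2 fold change of -0.08, lay 0.31 above (adjusted p = 0.012).

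**Figure D4:**
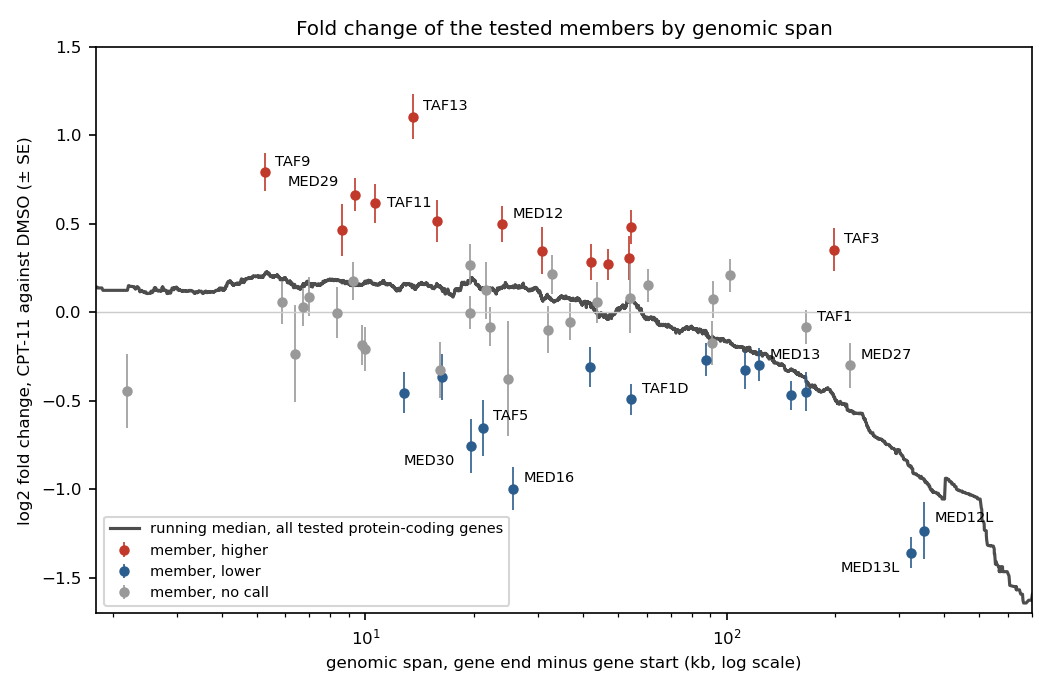
Log2 fold change, CPT-11 against DMSO, with its SE, against genomic span on a log axis for the 53 tested genes, coloured by call, and the running median of tested protein-coding genes as a line. The line falls with span, from above 0 under 30 kb to below 0 at 100 kb and beyond; MED13L and MED12L lie below it at the long end, TAF3 above it, and MED16, MED30 and TAF5 far below it at moderate span.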

How the data were processed

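RNA sequencing of 3 CPT-11 and 3 DMSO libraries was analysed from 1 deposited table on GRCh38; gene coordinates and exonic lengths equalled GENCODE release 29 for 55 of 55 genes. Per the submitters' processing notes the tools included HISAT2 2.1.0, edgeR 3.24.3, DESeq2 1.22.1, featureCounts 1.6.2, fastp 0.19.3 and StringTie 1.3.4d, with no roles stated. The sources used here do not give RNA selection, strandedness or the handling of multiply aligned reads. Of the 55 genes, 31 share exonic bases with other annotated genes, 15 of them at 10% or more, and not all are marked above. Duplicates are mentioned in the series text, whereas the labels list 3 samples for each group. The values the authors deposited per sample are a normalized signal, called the normalized count; 100% were whole multiples, within 0.001 read, of 1 read's worth, so reads could be recovered. Also deposited by the authors were log2 fold changes and p-values, per the file headers, quoted only as theirs.

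Here limma 3.58.1 in R 4.3.3, with a mean-variance trend, was fitted to log2(normalized count + 1) for genes with a mean of at least 10, with Benjamini-Hochberg adjustment over all tested genes; fold changes are on that scale and understate changes of low genes. The fitting was tested on simulated data with far fewer changed genes than here and with the scaling taken as known. That test therefore does not cover scaling under a change of this breadth. Genes named in full were the 6 most raised and 6 most lowered, the 3 longest and 3 shortest, paralog pairs, and the kinase module with TBP; others given in full were chosen after their values were seen. The genes and lists were chosen with earlier results of these data known. Alternatives changed the pseudocount, filter, scaling, tool (edgeR 4.0.16 and DESeq2 1.42.0 on whole reads), replicate block, samples and span trend. Read limits cover counting error only.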

Additional observations from a re-analysis of the deposited data

How the results depend on the processing

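Counts over all genes and over the partner lists stayed within 1.5 times their values under all 18 alternatives. The count of higher Mediator and TAF-named genes, 13, was 7 to 12 when 1 library was left out, and the count of lower ones, 14, was 10 to 15. Scaling by reads on non-mitochondrial genes moved the lower count to 9, the median log2 fold change, -0.001, to 0.081, and the median of genes of 100 kb or more, -0.312, to -0.229; it moved the median of all genes by 0.083, and the cause was not tested. The median ran from -0.052 to 0.015 when 1 library was left out. Removing the span trend, which by construction subtracts the median of genes of like span and shifted single genes by a median of -0.121 and left the median of all genes at -0.02, gave a median of -0.058, a median of -0.056 for genes of 100 kb or more, and 1 in place of 6 lower genes there. Relative to that trend several genes were opposite in sign to their plain fold changes. Among them were TAF1 at 0.31, MED27 at 0.26 (limma adjusted p = 0.089) and CDK19 at 0.01.

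Same-numbered libraries did not deviate together (correlations of -0.23, -0.01 and -0.10). With 3 libraries a group, these correlations cannot decide whether same-numbered samples were paired or shared a batch. With the replicate number as a block, 8 genes were higher and 9 lower, all of them among the 13 and 14, where 20.4% of all tested genes were higher and 21.6% lower. Depth limits TAF1L, TAF11L12 and TAF7L. Among the 53 tested genes over all settings, 64 results lost a call and 32 gained one.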
